A study of Mus musculus with 56 samples.

Results

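The genes of the mitochondrial chromosome were examined in 56 single-cell (SC) transcriptomes of primary mouse pituitary cultures. Members were all rows whose mouse symbol, looked up by Ensembl identifier, starts with mt-. All 37 genes of that chromosome were present among 47069 gene rows: 2 rRNA genes, 22 tRNA genes and 13 protein-coding genes. The rule used names only and no measured value.

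Cultures came from pituitaries of female C57BL/6 mice aged 10 to 12 weeks at random cycle stages, and 5 pituitaries were pooled per sample, so a cell could not be traced to an animal. Cells were dispersed, kept for 4 days in culture without treatment, trypsinized and stored in RNA-Best, which preserves the RNA of whole cells. Each cell was then lysed in its own chamber of a Fluidigm C1 integrated fluidic circuit for small cells, and full-length cDNA of polyadenylated RNA was amplified with SMART-Seq v4, with ERCC spike-ins (synthetic RNAs of known sequence) as controls and no molecular identifiers. The labels named no separate cultures or conditions, so the 56 cells are 1 sample. No test was possible, and every comparison between cells below is a description. Intervals cover counting error or the spread over these cells, and not differences between animals or cultures.

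Gene counts per cell, without spike-ins, ranged from 357 to 12563266 (median 711525), and spike-ins took 0.144% to 74.9% of all counts. Wells B6 and H10 held under 2000 gene counts. *Prl*, the prolactin hormone gene and lactotroph marker, led the other hormone lineages in 47 cells, *Gh*, the growth hormone gene, in 4, and *Pomc*, the precursor of corticotropin, in 5. Of 4 markers of folliculostellate and stem cells 2 were at 0 in every cell. Marker sets of other cell types stood out in single wells: endothelial markers summed to 8855 CPM in H4 and erythroid markers to 146749 CPM in F11, where CPM is counts per 1000000 gene counts. Over all cells the median sums were 0.577 CPM for 5 endothelial and 58.5 CPM for 5 erythroid markers. The mitochondrial share in H4 and F11 was 0.230% and 0.293%, beside a median of 0.234% over all cells. The summed gonadotroph markers were highest in E3, at 64925 CPM with a share of 1.26%. Over 56 cells the share had a Spearman correlation of 0.35 with the erythroid sum and 0.31 with the gonadotroph sum, and between -0.08 and 0.21 with the other marker sums. The part of these markers in the results was not tested.

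The mitochondrial chromosome is a small circle that is transcribed from both strands as long precursors. In these precursors the tRNAs lie between most of the other genes and are cut out, which releases the rRNAs of the mitochondrial ribosome and the mRNAs, most of which then receive short poly(A) tails. The proteins are core subunits of complexes I, III and IV of the respiratory chain and of complex V, the ATP synthase. Every other subunit, and every protein that copies, transcribes or translates the chromosome, is encoded in the nucleus. Stretches of mitochondrial sequence have also been copied into nuclear chromosomes, and a read from such a stretch can be placed at either site where the copy is identical.

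The sequences the counts turned on are printed first, from the GENCODE M21 transcripts on GRCm38, 5′ to 3′. The first set holds the tRNAs with the highest mean CPM, with the anticodon in capitals, located as the centre of a 7-base loop closed by a stem of 5 pairs. *mt-Tm* (tRNA for methionine) lies at chrM:3845-3913 on the plus strand, *mt-Tq* (glutamine) at chrM:3772-3842 on the minus strand and *mt-Ts1* (serine) at chrM:6870-6938 on the minus strand.
mt-Tm: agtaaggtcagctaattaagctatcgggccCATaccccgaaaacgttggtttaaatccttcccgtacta
mt-Tq: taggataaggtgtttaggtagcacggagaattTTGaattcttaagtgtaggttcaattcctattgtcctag
mt-Ts1: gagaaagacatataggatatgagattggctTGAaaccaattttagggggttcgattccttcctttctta

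The second set shows how little separates a member from its nuclear copies. A window of *mt-Co1*, the gene of the catalytic subunit of complex IV, at chrM:6390-6433 on the plus strand is set beside the same bases of its copies *Gm29216* at chr1:24616145-24616188 and *Gm13340* at chr2:22588542-22588585, both on the minus strand. The start of *mt-Nd3*, a complex I gene, at chrM:9459-9501 on the plus strand is set beside *Gm28438* at chr1:24613077-24613119 on the minus strand. Capitals mark positions that differ within a set. Counted from 1 at the first base of the mitochondrial gene, these are A1066T in *Gm29216*, T1072C in *Gm13340* and T3C in *Gm28438*.
mt-Co1: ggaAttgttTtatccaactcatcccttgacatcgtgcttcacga
Gm29216: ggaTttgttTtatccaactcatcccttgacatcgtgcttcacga
Gm13340: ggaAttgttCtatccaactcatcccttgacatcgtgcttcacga
mt-Nd3: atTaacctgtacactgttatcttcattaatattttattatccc
Gm28438: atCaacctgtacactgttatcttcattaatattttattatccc

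The members took a small and variable part of the counts. Their share of gene counts had a median of 0.234% per cell and ranged from 0.0512% in well E1 to 3.80% in well B5 (mean 0.481%, SD 0.603, n = 56). It was under 0.5% in 42 cells, under 0.2% in 24 and over 1% in 8. These shares rested on very different numbers of counts: E1 held 2325 mitochondrial counts of 4536632 gene counts, while B5 held 1024 of 26952. Well H2, led by *Pomc*, held 158114 mitochondrial counts, 32.6% of all 485241 in the table. Summed over cells the share was 0.366%, and without H2 it was 0.272%. In 7 cells the members had under 100 counts in all, down to 4.5 in B6. The median was 0.227% without wells B6 and H10, and 0.230% with wells C10 and C11, which were nearly alike, as 1 cell. Adding the nuclear copies described below raised the median to 0.300% and kept a wide range, 0.0633% to 5.20%.

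**Figure D1:**
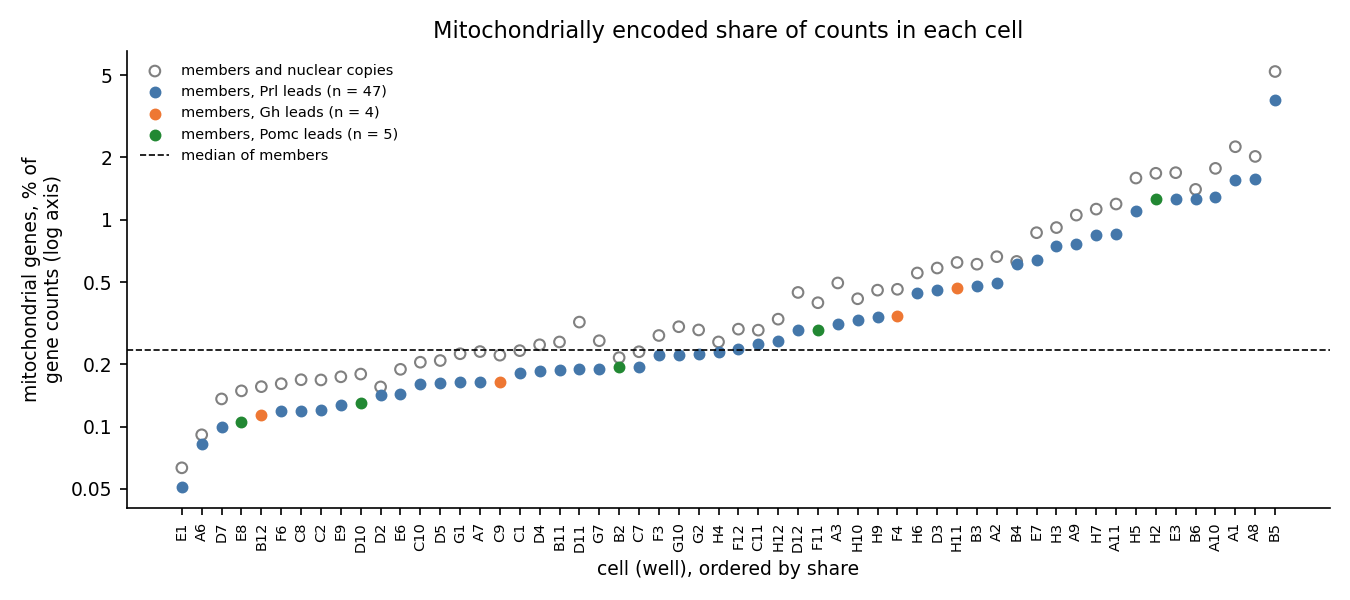
Mitochondrially encoded share of gene counts in each of the 56 cells (percent, log axis), ordered by share and coloured by the hormone that leads; open circles add the nuclear copies, and the dashed line is the median of the members. The members run from 0.0512% in E1 to 3.80% in B5, cells led by *Gh* and *Pomc* lie among those led by *Prl*, and each open circle lies above its filled point.

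Protein-coding genes held the largest part of the mitochondrial counts in 51 cells and the rRNAs in 4. Per cell, protein-coding members took a median of 64.7% (range 25.3% to 93.6%), rRNAs 25.7% (5.11% to 69.6%) and tRNAs 3.57% (0% to 54.5%). The lowest protein-coding part and the highest tRNA part were in the same well, A6, with 77 mitochondrial counts. Over the summed counts the classes took 73.7%, 21.2% and 5.08%. The chromosome codes unevenly on its strands, with 28 members on the plus strand and 9 on the minus strand, namely *mt-Nd6* and 8 tRNAs. The minus-strand members held 1.31% of the summed counts. The strand setting of the counting was not given in the sources used here, so sense and antisense reads could not be told apart.

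*mt-Rnr2*, the large rRNA of the mitochondrial ribosome, was the most abundant member, 36th of all genes by mean share, and no other member was among the top 100. These ranks are of the mitochondrial rows alone, and ranks among all genes with nuclear copies added were not taken. *mt-Co3* was 186th at a mean of 547 CPM, and its nuclear copy *Gm28437*, described below, had a mean of 551 CPM. The mean of *mt-Rnr2* was 1271 CPM. The CPM of *mt-Rnr2* ranged from 0 to 15119 with a median of 567, and it passed 1 CPM in 55 cells. *mt-Rnr1*, the small rRNA, ranged from 0 to 3376 CPM with a median of 50.7 and passed 1 CPM in 53 cells. Divided by gene length, *mt-Rnr2* took a median of 74.9% of the pair in the 50 cells with enough counts and was the higher in 45. The split still ranged from 7.13% to 99.6%, so the rRNAs did not keep a fixed ratio between cells, although they come from neighbouring genes of the same strand.

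Wells C10 and C11 also differed in their rRNAs. Among 1035 pairs of cells with at least 100000 gene counts, this pair was the most alike: over genes with a mean of 100 to 5000 scaled counts the median absolute log2 ratio was 0.17, against 0.44 in the next pair and 3.73 in the median pair. Over the rRNAs and protein-coding members, taken as CPM with no limit on counts, the median absolute log2 ratio was 0.29. Members with few counts enter that value, so it is not like for like with the others. The counts of *mt-Rnr2* were 103 (C10) and 129 (C11), and those of *mt-Cytb* 129 and 118. By contrast *mt-Rnr1* was counted 23 times in C10 and 397 times in C11, at 50.9 and 875 CPM. Most of the difference between their mitochondrial shares, 0.160% and 0.251%, lay in this gene. This pair was singled out after its values were seen. Whether both wells held material of the same cell was not tested, so their difference need not be one between cells.

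The tRNA counts were nearly all of 1 gene. *mt-Tm*, the tRNA for methionine, which carries the CAT anticodon shown above, held 20673 of 24643 tRNA counts, 83.9%. It was the largest tRNA in all 54 cells with any tRNA count and passed 1 CPM in all 54. Its CPM ranged from 0 to 2067 with a median of 125. *mt-Tq*, its neighbour on the opposite strand, came next with 1948 counts, a median of 1.37 CPM and a highest value of 235 CPM, and passed 1 CPM in 30 cells. *mt-Ts1*, which lies opposite the end of *mt-Co1* and overlaps it by 3 bases, had 529 counts, a median of 1.87 CPM and a highest value of 142 CPM, and passed 1 CPM in 36 cells.

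Among the remaining tRNAs the counts were thin. Of the 22 tRNA genes, 12 had under 20 counts over all 56 cells and 18 had a median of 0 CPM. The rarest, *mt-Tr*, the arginine tRNA, was listed with 0.5 counts in 1 cell. *mt-Tl1* (leucine), *mt-Te* (glutamate), *mt-Tc* (cysteine) and *mt-Tp* (proline) had 511, 334, 197 and 135 counts. A single well could set a mean: *mt-Tt* (threonine) had a median of 0 CPM and reached 290 CPM in B4. tRNAs are 59 to 75 bases long, near or below the length of many sequencing reads, so their values per kb are not given beside those of longer genes here.

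*mt-Tm* ends at base 3913 and *mt-Nd2*, a complex I gene, starts at base 3914 on the same strand, with no base between them. Their counts nonetheless differed: *mt-Tm* had more counts than *mt-Nd2* in 43 cells, and the Spearman correlation of their CPM over 56 cells was 0.10. Over all cells *mt-Nd2* had 9029 counts and *mt-Tm* 20673.

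Among the protein-coding members, *mt-Co3* and *mt-Cytb* had the highest median levels per length, and 5 of the 7 complex I genes were among the 6 lowest. With the nuclear copies described below, *mt-Cytb* went from rank 2 to rank 5 by median. The genes are given below by complex as CPM per kb of gene length, with the lowest value 0 unless stated. This scale, used also for splits of a pair and the balance of complexes, takes reads as evenly placed along a gene. The placement of reads was not examined.

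Complex IV (cytochrome c oxidase) passes electrons to oxygen, and its 3 mitochondrial genes encode its core. *mt-Co3* passed 1 CPM in all 56 cells, though in wells B6 and H10 on 0.5 counts each, and at a limit of 1 count it was detected in 96.4% of cells, against 98.2% for *mt-Cytb* and *mt-Rnr2*. Its level had a median of 240, a lowest value of 19.7 and a highest of 8637 CPM per kb, and the highest cell was B5. *mt-Co2* had a median of 158 and a highest value of 6916 CPM per kb, and *mt-Co1* a median of 144 and a highest value of 2558 CPM per kb. Both were also highest in B5 and both passed 1 CPM in 55 cells. *mt-Co3* and *mt-Co2* lie on the same strand with *mt-Atp8* and *mt-Atp6* between them. Their split per length had a median of 51.8% for *mt-Co3* but ran from 1.46% to 98.1% over 48 cells.

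*mt-Cytb*, cytochrome b and the only complex III gene of the chromosome, had a median of 226 and a highest value of 4900 CPM per kb. The highest value was in B6 and rested on 2 counts. Without nuclear copies *mt-Cytb* was higher than *mt-Co3* in 30 cells and lower in 26, so the order of these genes did not hold from cell to cell.

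Complex V makes ATP. *mt-Atp6*, its proton channel subunit, had a median of 123 and a highest value of 3951 CPM per kb, and *mt-Atp8*, a short gene that overlaps it by 43 bases, had a median of 21.9 and a highest value of 1364 CPM per kb. *mt-Atp6* was above *mt-Atp8* in 37 of 38 cells with enough counts. These genes are read from 1 shared mRNA, and their CPM had the highest Spearman correlation of any protein-coding pair, 0.71 (n = 56 cells). Some reads lie in both genes, so the values are not independent.

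Complex I (NADH dehydrogenase) has 7 mitochondrial genes, all subunits of its membrane arm, and their levels spread most widely. *mt-Nd4* had a median of 97.8 and *mt-Nd1* of 92.3 CPM per kb, with highest values of 1984 and 1220. *mt-Nd2* had 22.9, *mt-Nd5* 15.2, *mt-Nd6* 13.5, *mt-Nd4l* 8.86 and *mt-Nd3* 3.85 CPM per kb at the median. *mt-Nd3* passed 1 CPM in 29 cells and *mt-Nd4l* in 30, fewer than any other protein-coding member. Nuclear copies described below held counts equal to 98.9% of those of *mt-Nd3* and 101% of those of *mt-Nd4l*, but 3.69% of those of *mt-Nd4*. The comparisons of these genes are of the mitochondrial rows alone. *mt-Nd4l* and *mt-Nd4* overlap by 7 bases and share an mRNA. Per length *mt-Nd4* took a median of 85.9% of the pair (range 1.09% to 100%, n = 35 cells). Since the placement of reads along these genes was not examined, this split need not be one of mRNA levels. *mt-Nd5* and *mt-Nd6* face each other on opposite strands and overlap by 14 bases, and *mt-Nd5* was the higher in 20 of 32 cells.

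Most neighbours in the order of the 13 medians did not separate beyond the spread over cells. The clearest step was from *mt-Nd1* to *mt-Nd2*: *mt-Nd1* was the higher in 48 cells and *mt-Nd2* in 5. At every other step the upper gene was higher in 26 to 36 of the 56 cells. The order by mean differed, with *mt-Co3* at 697, *mt-Co2* at 659 and *mt-Cytb* at 420 CPM per kb, since single wells such as B5 weigh on a mean.

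**Figure D2:**
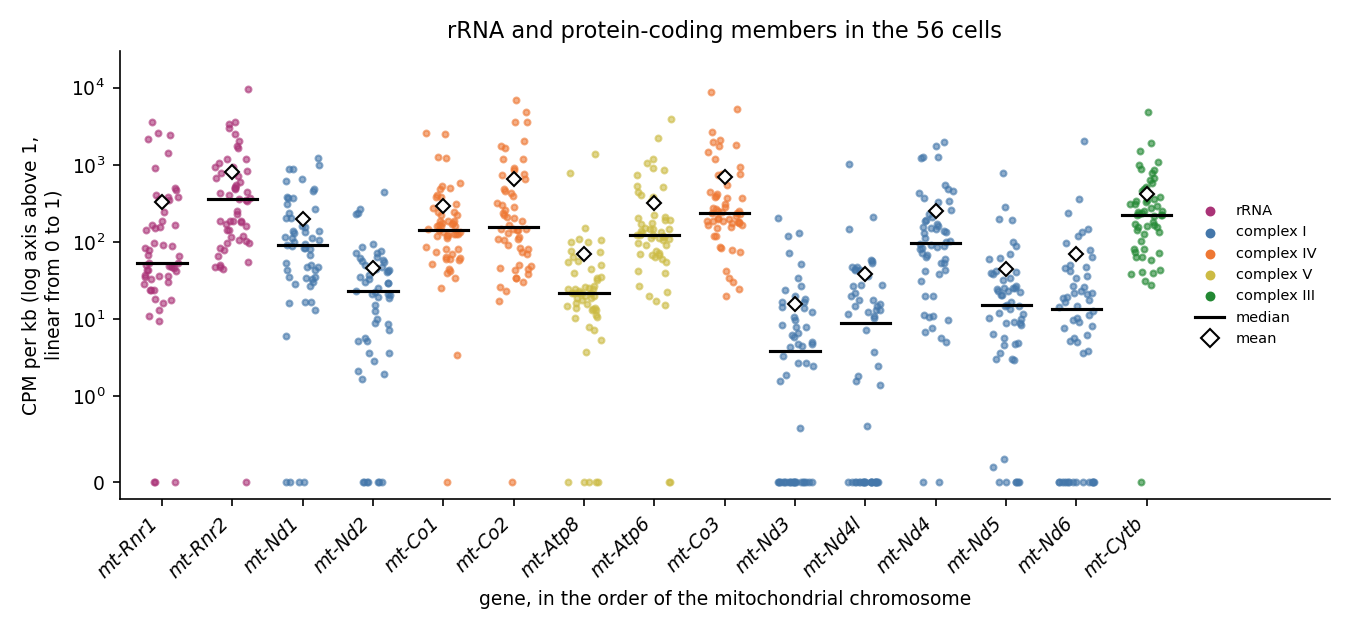
CPM per kb of the rRNA and protein-coding members in the 56 cells, in gene order, with each point a cell, the black line the median and the diamond the mean (log axis above 1, linear from 0 to 1). Medians fall from 358 for *mt-Rnr2* and 240 for *mt-Co3* to 3.85 for *mt-Nd3*, every mean lies above its median, and the clouds of most genes overlap.

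A cell showed 17 of the 37 members at 1 CPM or more at the median (range 3 to 25). All 13 protein-coding members passed in 16 cells. The levels of the protein-coding members moved together only in part: the median Spearman correlation over their 78 pairs was 0.31 (range 0.02 to 0.71, n = 56 cells), beside 0.14 over all pairs of the other genes with a mean of 10 CPM or more. Pairs of an rRNA and a protein-coding gene had a median of 0.17, and *mt-Tm* with the protein-coding genes 0.10. The cells share a chip and differ in depth, and both enter each of these values. The limit of 10 CPM was not set for the members, and the other genes were not matched to them in level or detection. The values 0.31 and 0.14 are therefore not like for like.

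The balance of the complexes was compared in the 48 cells with at least 100 protein-coding mitochondrial counts, and 8 cells were left out. Complex IV took the largest part of the CPM per kb in 39 cells, complex I in 6, complex V in 2 and complex III in 1. The medians were 44.2% for complex IV, 27.2% for complex I, 16.4% for complex III and 10.8% for complex V. Single cells departed far from these: complex IV ran from 7.54% in A11 to 90.5% in A2, and complex V from 0.304% to 83.7%, with the highest value in A3. The quartiles for complex IV, 37.7% and 55.4%, were closer together.

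**Figure D3:**
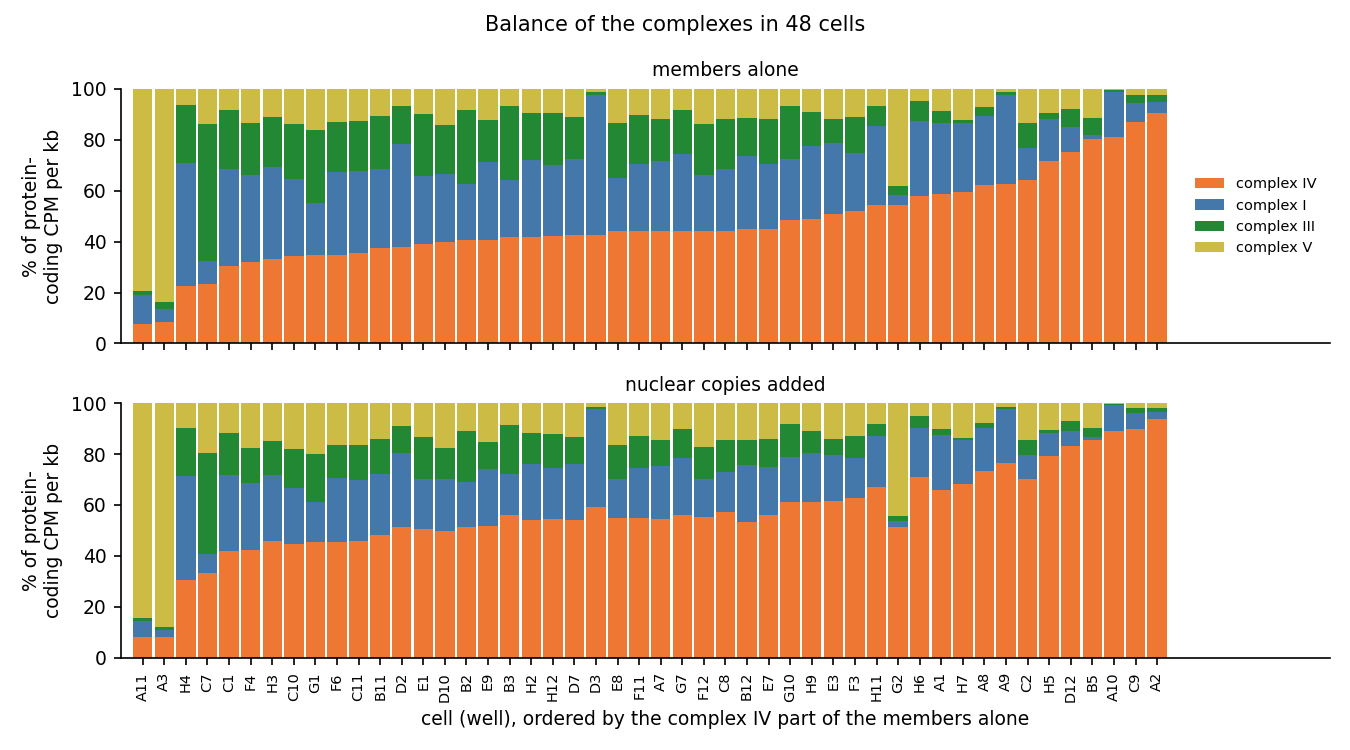
Part of the protein-coding CPM per kb in complexes IV, I, III and V (percent, stacked) in each of 48 cells, for the members alone (top) and with nuclear copies added (bottom), with cells ordered by the complex IV part of the members alone. Complex IV rises from 7.54% in A11 to 90.5% in A2 in the top panel and is the largest part in 39 cells there and in 44 cells in the bottom panel.

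Counts of several members were matched by nuclear copies. Of the annotated transcripts, 17 outside the mitochondrial chromosome aligned to a member at 90% identity or more over 100 bases or more; 16 of them were analysed, for 11 members. Together they held 160685 counts, which equals 33.1% of the members' own total, and per cell the median was 34.1% (range 3.05% to 68.9%). A block of 7 copies at chr1:24611535-24616197 on the minus strand held 96.3% of these counts. Of its 4140 aligned bases 2 differed from the mitochondrial genes, and 5 of the 7 copies were identical.

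Where such a copy spanned nearly the whole member, the counts were almost equal cell by cell. *Gm28437* had 54685 counts and *mt-Co3* 54014, and their ratio lay within 10% of 1 in 42 of the 43 cells with over 20 counts of the member. *Gm28661* had 44213 counts and *mt-Co2* 44104, within 10% in 40 of 40 cells. *Gm10925* had 23722 counts and *mt-Atp6* 22363, with a median ratio of 1.08 (range 0.984 to 1.23), and 26 of 38 cells within 10%. The smaller pairs *Gm10222* with *mt-Nd4l* (2250 and 2230 counts) and *Gm28438* with *mt-Nd3* (890 and 900 counts) had median ratios of 1.00 and 0.96. Reads from these stretches cannot be told apart by sequence, apart from those that hold a differing base such as T3C.

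Copies of part of a gene had fewer counts than the gene. *Gm29216* matches bases 1063 to 1545 of *mt-Co1*, 31.3% of its length, and its counts were 57.2% of those of *mt-Co1*. Per cell the ratio had a median of 0.496 and quartiles of 0.405 and 0.652 over 45 cells. It was lowest in B5, with 0.5 counts beside 107 of *mt-Co1*, and highest in H3, with 1612 beside 1625. *Gm28439* is identical to bases 1 to 876 of *mt-Nd4*, 63.6% of its length, but its counts were only 3.69% of those of *mt-Nd4*, and the ratio was under 0.1 in 30 of 35 cells. For neither copy did the part of the counts match the part of the length. Where reads lay along these genes was not examined, so CPM per kb need not be a level of mRNA.

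Less similar copies drew few counts. *Gm13340* on chromosome 2 aligns to all of *mt-Co1* at 97.6% identity and had 3163 counts, 6.76% of those of *mt-Co1*. *Gm13341* beside it aligns to all of *mt-Co2* at 95.9% and had 4.72% of its counts. The remaining copies, at 90.7% to 96.7% identity, had 0.0760% to 2.16% of the counts of their members.

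**Figure D4:**
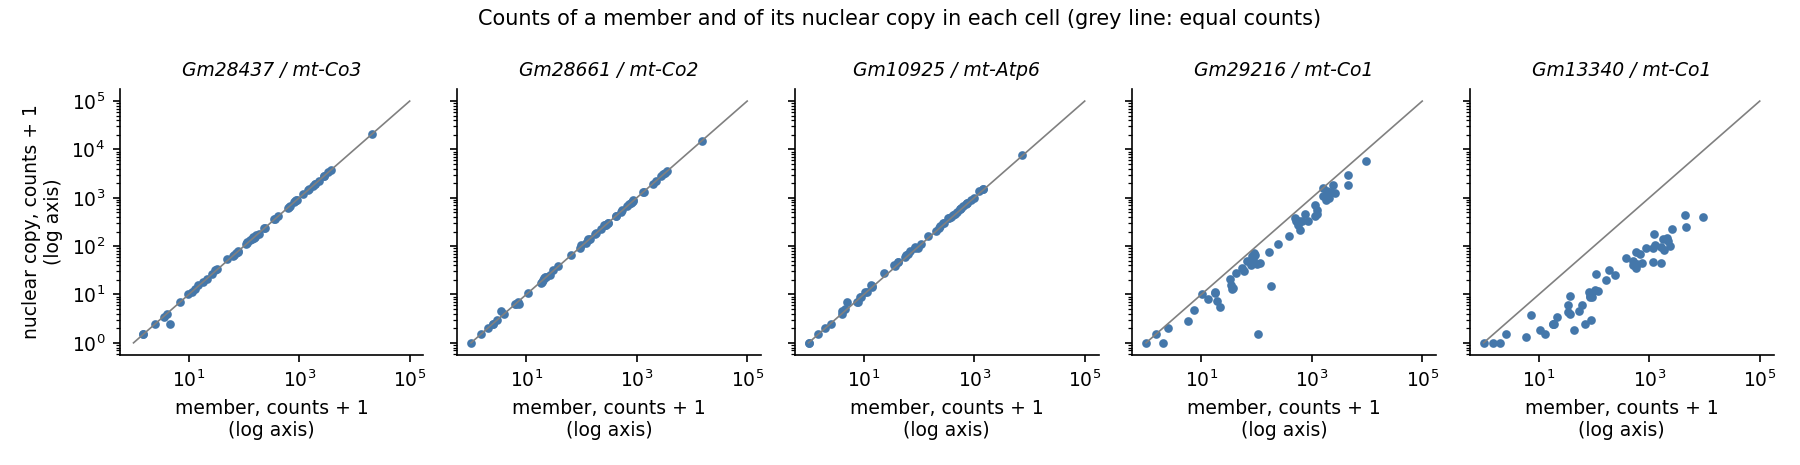
Counts (plus 1, log axes) of 5 nuclear copies against those of their mitochondrial gene, with each point a cell and the grey line equal counts. *Gm28437*, *Gm28661* and *Gm10925* lie on the line, *Gm29216* lies below it with a wide scatter, and *Gm13340* lies far below it.

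Adding each copy to its best match changed the order of levels as well as their size. The mean rose from 697 to 1400 CPM per kb for *mt-Co3*, from 659 to 1364 for *mt-Co2*, from 321 to 667 for *mt-Atp6* and from 294 to 472 for *mt-Co1*, while *mt-Cytb* stayed at 420 and went from rank 3 to rank 5. The mean of *mt-Nd4l* went from 37.9 to 76.0 CPM per kb and from rank 12 to rank 8. By median, *mt-Cytb* went from rank 2 to rank 5, at 226 CPM per kb. With copies the medians were 481 for *mt-Co3*, 347 for *mt-Co2*, 258 for *mt-Atp6* and 227 for *mt-Co1*. The median part of complex IV rose from 44.2% to 54.9% and that of complex I fell from 27.2% to 19.2%. Complex IV was the largest in 44 cells with the copies. Deposited values were not whole numbers in 38.8% of the member values above 0, against 33.5% over all genes.

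The mitochondrial share had a larger correlation with the spike-in share than with depth. Over 56 cells its Spearman correlation with gene counts was -0.24 (95% interval -0.47 to 0.03). With the ERCC share of all counts it was 0.49 (0.26 to 0.67), and in size these intervals overlap. In plate columns 1 to 3 and 7 to 9 the values were -0.26 and 0.72 (29 cells). In columns 4 to 6 and 10 to 12 they were -0.22 and 0.34 (27 cells). A high ERCC share means few gene counts per spike-in, and it and the mitochondrial share are shares of the same library. Among the other genes with a mean of 10 CPM or more, the median correlation of CPM with the ERCC share was -0.20. Taken gene by gene in the same way, the median was -0.16 over the 37 members and -0.18 over the 13 protein-coding members. Of the 37 members 9 had a correlation above 0, 4 of them protein-coding, so the value for the summed share does not hold for most single members. However, 18 of the 37 had a median of 0 CPM, and few counts enter their correlations. The same count over the other genes was not taken, so the 9 are not set against a typical gene.

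The classes differed in this. As shares of gene counts, tRNAs had a correlation of 0.71 with the ERCC share, rRNAs 0.62 and protein-coding members 0.31. Within the sets of plate columns the tRNA values were 0.69 and 0.78, the rRNA values 0.76 and 0.52, and the protein-coding values 0.51 and 0.16. In the 20 cells with an ERCC share over 30%, tRNAs were a median of 10.6% of the mitochondrial counts and protein-coding genes 49.6%. In the 36 other cells they were 2.47% and 74.2%. The protein-coding part of the mitochondrial counts had a correlation of -0.70 with the ERCC share.

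A single gene carried the tRNA pattern. *mt-Tm* had a correlation of 0.72 with the ERCC share, the highest of all members, with *mt-Rnr2* next at 0.52. *mt-Tm* was between 101 and 1515 CPM with a median of 391 in the 20 cells over 30%, and between 0 and 2067 CPM with a median of 41.7 in the other 36. The ranges overlap, since some cells up to 30% were as high. The median CPM was 0 in both sets of cells for 16 of the 37 members. Of the other 21, 4 had a higher median in the cells over 30% (*mt-Tm*, *mt-Rnr2*, *mt-Rnr1* and *mt-Atp8*) and 17 a lower one. Among 6235 other genes with a mean of 10 CPM or more and a median above 0 in either set, 52.3% had the higher median in the cells over 30%. That limit on the mean was not set for the members. *mt-Tl1*, *mt-Ts1*, *mt-Nd3*, *mt-Te* and *mt-Tp*, all among the 17, had a mean under 10 CPM and a median of 0 in the cells over 30%. *mt-Nd4l* went furthest the other way, with a correlation of -0.56 and a median of 0 CPM in the 20 cells over 30% against 4.18 in the others. Its correlation with gene counts was 0.65, and the 20 cells had a median of 155208 gene counts, where 1 count is more than 4.18 CPM, against 2490781 in the others. Among the 20 cells values of 0.5 counts of *mt-Nd4l* also occurred, such as 3.86 CPM in F12.

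**Figure D5:**
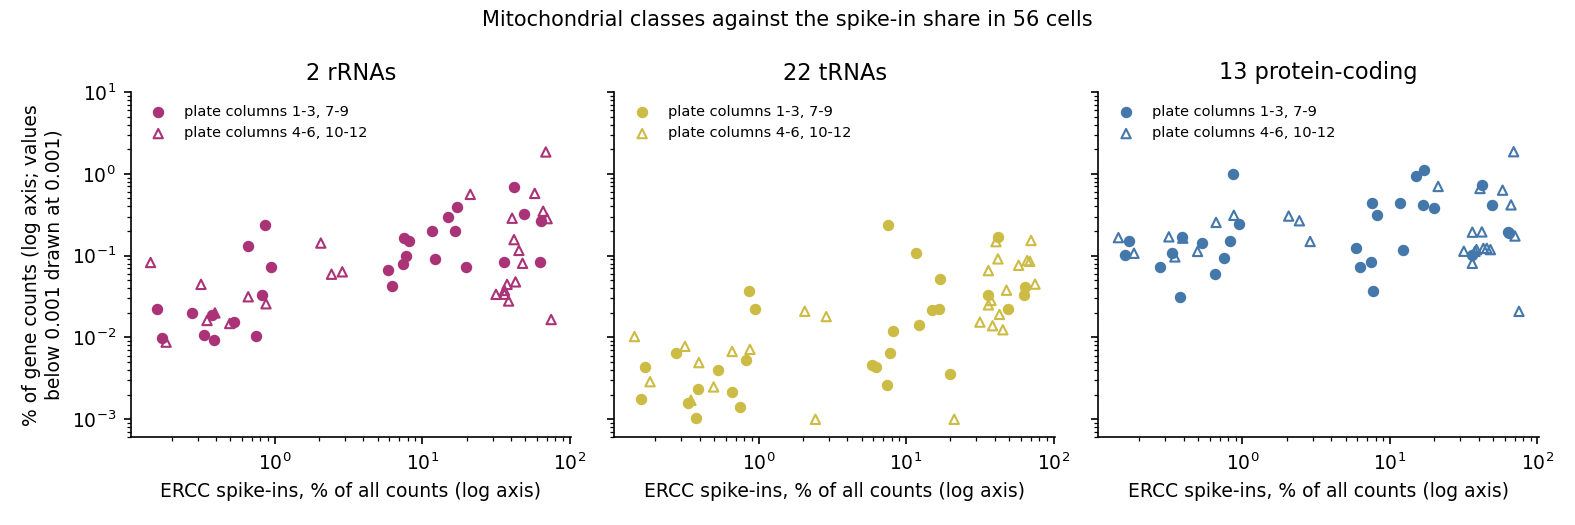
Share of gene counts (percent, log axis) of the rRNAs, tRNAs and protein-coding members against the ERCC share of all counts (percent, log axis) in 56 cells, with filled circles for plate columns 1 to 3 and 7 to 9 and triangles for columns 4 to 6 and 10 to 12. The Spearman correlation is highest for the tRNAs (0.71), next for the rRNAs (0.62) and lowest for the protein-coding members (0.31).

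Cells led by different hormones overlapped in their mitochondrial share. The median was 0.237% (range 0.0512% to 3.80%) in 47 cells led by *Prl*, and 0.254% (0.114% to 0.468%) in 4 cells led by *Gh*. In C9 *Gh* took 30.8% of gene counts, but in F4, B12 and H11, the other cells led by it, 0.538%, 1.05% and 1.24%, less than in some cells led by *Prl*, such as A11 at 20.2%. In the 5 cells led by *Pomc* the median share was 0.194% (0.105% to 1.26%). All ranges overlap, and the depths were unequal, with median gene counts of 453587, 3945964 and 5298575. Among cells over 1000000 gene counts the medians were 0.191% (17 cells), 0.344% (3 cells) and 0.194% (5 cells). The correlation of the share with *Prl*, *Gh* and *Pomc* CPM was -0.04, 0.15 and 0.15. Leaving these 3 genes out of the denominator raised the median over all cells to 0.353%, and the medians of the cells led by *Prl*, *Gh* and *Pomc* to 0.366%, 0.321% and 0.279%.

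Nuclear genes listed for expression of the mitochondrial chromosome were detected less often than the nuclear subunits described next. The same counts over all gene rows were not taken, so neither list is set against a typical gene. The list of 36 genes held the chromosome's transcription, replication, processing and translation factors. It also held *Nrf1*, *Gabpa* and *Ppargc1a*, which regulate nuclear genes. All 36 were detected in at least 1 cell, but only 9 in at least 28 of the 56 cells, and 21 had a median of 0 CPM. Their summed share had a median of 0.0611% of gene counts (range 0% to 0.348%). The highest median, 41.6 CPM, was that of *Hsd17b10*, a subunit of the enzyme that cuts the 5′ ends of mitochondrial tRNAs. The correlation of the summed CPM with the mitochondrial share was -0.26.

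Nuclear subunits of the same complexes were detected in more cells than the genes of that list. Of 33 genes for nuclear subunits of complexes I, III, IV and V, 32 passed 1 CPM in at least 28 cells. Together they took a median of 1.41% of gene counts (0.171% to 2.81%), against 0.165% for the 13 mitochondrial protein-coding genes, and more than these in 50 of 56 cells. Per kb of exon the median nuclear gene was at 70.2 CPM per kb and the median mitochondrial one at 92.3, and 7 of the 33 nuclear genes had a median above that of *mt-Co3*. With the nuclear copies added to *mt-Co3*, whose median was then 481 CPM per kb, 4 did. By complex, the highest medians were those of *Ndufa4* (447 CPM), counted here with complex I, *Uqcrq* of complex III (1107 CPM), *Cox8a* of complex IV (698 CPM) and *Atp5g1* of complex V (952 CPM). The correlation of their summed CPM with the mitochondrial share was 0.09. Several of these genes have nuclear pseudogenes of their own that may share reads with them.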

How the data were processed

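Reads of the 56 SC libraries had been summarized by the authors as estimated counts, 1 column a cell, not scaled to depth. The submitters' processing notes name mm10, STAR 2.5.1b and featureCounts 1.5.0-p1. Strand and multi-mapping settings were not given in the sources used here. Gene symbols, positions and lengths came from GENCODE M21 on GRCm38 (46488 identifiers matched), and CPM was scaled to 1000000 gene counts without the 92 ERCC rows. Depth ranged from 357 to 12563266 gene counts, and in a shallow cell 1 count is many CPM.

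Nuclear copies were found with blastn (BLAST 2.17.0+) of annotated transcripts against mitochondrial transcripts, since no genome sequence was used here, at 90% identity over 100 bases. Ratios were taken in cells with over 20 counts of the member, or, for pairs of members, at least 20 in both together. Complex balance used cells with at least 100 protein-coding counts. Whole numbers were called within 1e-09. Thinning drew 100000 counts.

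Members and lists were chosen with earlier results of these data known. All members were counted. The rRNAs, protein-coding genes and the 3 tRNAs with the highest mean CPM were named in full, with the 5 copies of highest summed CPM and the leading gene of each nuclear list. Other genes, copies and wells, apart from those with the highest and lowest share, were named after their values were seen. Detection was tested at 1 count, 10 CPM and 100 CPM, and the other alternatives were of denominator, depth, cells, length, nuclear copies and type of correlation. Scripts were tested on simulated data. Python 3.11.15, numpy 2.4.6, scipy 1.17.1, pandas 2.3.3 and matplotlib 3.10.9 were used.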

Additional observations from a re-analysis of the deposited data

How the results depend on the processing

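Apart from detection of single genes, 66 of 82 alternative values stayed within the interval or spread of the value reported and 16 did not, and no correlation changed sign. The intervals of medians and correlations treat the cells as units, although these form 1 group. Of 60 alternative values for the detection of single genes, 31 moved, 15 of them at 100 CPM. The median mitochondrial share was 0.187% with spike-ins in the denominator and 0.353% without *Prl*, *Gh* and *Pomc*. Per kb of gene length, a scale that is unsure for genes as short as tRNAs, the rRNA, tRNA and protein-coding parts were 9.45%, 36.3% and 44.9%, so the order of rRNAs and tRNAs turned. With nuclear copies added they were 18.0%, 2.58% and 73.6%, and complexes I, IV and V took 19.2%, 54.9% and 13.2%. Without division by length complexes I, III and V took 29.8%, 20.1% and 6.56%. The order of cells led by *Gh* and *Prl* (0.254% and 0.237%) turned without the hormone genes (0.321% and 0.366%) and in plate columns 1 to 3 and 7 to 9 (0.165% in 1 cell and 0.223%). At 100 CPM a cell showed a median of 6 members. The correlation with the ERCC share was 0.72 in plate columns 1 to 3 and 7 to 9. Alternatives that left out wells B6 and H10, used cells over 1000000 gene counts, or added copies to the classes and correlations were chosen after seeing the data, as was the correlation of each class within the plate columns. Rare members depended on depth: thinned to 100000 gene counts, *mt-Nd3* was counted in 21.7% of 46 cells, against 51.8% of 56 at 1 CPM. No paired analysis was possible because the cells form 1 group.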
